A study of Mus musculus with 238 samples.

Results

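The genes described here encode the feeding peptides of the arcuate nucleus and receptors through which hunger and satiety signals act in the hypothalamus. They were chosen by name, and the rows of Agrp, Npy, Pomc, Cartpt, Lepr, Ghsr, Mc4r and Mc3r were taken from the count table, 8 of 21076 genes. The study sequenced RNA of brain regions from C57BL/6JN mice aged 19 months to locate where interventions meant to counter ageing act in the brain. In the diet experiment 4 females were fed ad libitum (AL) and 5 females were dietary restricted (aDR, labelled DR in liver). In the plasma experiment 3 males received young mouse plasma (YMP) and 4 males received PBS, both injected retro-orbitally. Sex cannot be told apart from experiment. Hypothalamus was represented by 14 libraries, those of AL mice 63, 66, 68 and 69, aDR mice 62, 64, 65 and 67, PBS mice 72, 80 and 84, and YMP mice 73, 77 and 81.

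The arcuate nucleus lies at the base of the hypothalamus and holds opposing groups of feeding neurons. AgRP neurons release agouti-related peptide (Agrp) and neuropeptide Y (Npy) and promote eating. POMC neurons cut pro-opiomelanocortin (Pomc) into alpha-MSH and reduce eating, and many of them also make the CART peptide (Cartpt), which is produced in other hypothalamic nuclei too. Alpha-MSH activates the melanocortin receptors MC4R and MC3R, and AgRP blocks them. The leptin receptor (Lepr) reports fat stores to both groups of neurons, and the ghrelin receptor (Ghsr) carries the hunger signal of the stomach. Food deprivation is known to raise Agrp and Npy and to lower Pomc in the arcuate nucleus of rodents.

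Each hypothalamus library held 5.34 to 23.8 M counts, against 0.606 to 32.4 M over all 238 libraries. AL mouse 66 (21.9 M) and PBS mouse 72 (23.8 M) were the deepest, and the other 12 libraries lay between 5.34 and 9.57 M. Values are given as CPM, the count of a gene divided by the total of its library in M. A count of 0 allows up to 3 counts, between 0.126 and 0.562 CPM in these libraries, and such limits cover counting error only. The samples are pieces of whole hypothalamus, so fewer cells of a type and less RNA per cell cannot be told apart, nor can the share of arcuate nucleus in a piece.

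Marker genes of neighbouring nuclei showed that the pieces differed in content. Nr5a1, which marks the ventromedial nucleus beside the arcuate nucleus, was at 0 counts in aDR mouse 62, 2 in PBS mouse 72 and 8 in YMP mouse 77. It was at 13.5 to 41.3 CPM in the other 11 libraries. The 5 ventromedial markers summed to 98.3, 195 and 119 CPM in aDR mouse 62, PBS mouse 72 and YMP mouse 77. They summed to 135 to 243 CPM in the other 11, so PBS mouse 72 was not low by this sum. The lateral hypothalamus peptides Hcrt and Pmch had 4 and 36 counts in PBS mouse 72, while Pmch was at 90.5 to 2285 CPM elsewhere. Prl and Gh, hormone genes of the pituitary, reached 938 and 149 CPM in aDR mouse 67. The summed level of the 10 pituitary markers was 1191 CPM in that library and at most 43.3 CPM in the other 13. Among those it was 36.5, 42.9, 43.3 and 35.4 CPM in AL mice 63 and 69, aDR mouse 64 and PBS mouse 80. In AL mice 66 and 68 and aDR mice 62 and 65 it was 2.83, 1.70, 2.19 and 4.29 CPM. In PBS mice 72 and 84 and YMP mice 73, 77 and 81 it was 2.02, 3.41, 2.74, 2.24 and 7.20 CPM. The part of pituitary tissue in the Pomc levels of hypothalamus was not tested. The summed level of 10 other markers of arcuate neurons overlapped between groups. It was 208 to 301 CPM in AL, 171 to 343 in aDR, 203 to 286 in PBS and 162 to 268 in YMP mice. Equal arcuate content cannot be read from this sum, which was 243 CPM in aDR mouse 62 and 209 in PBS mouse 72. The arcuate gene Ghrh was at 4.07, 3.73 and 2.82 CPM in aDR mice 62 and 64 and PBS mouse 72. Elsewhere Ghrh was at 6.31 to 20.3 CPM. Slc6a3 was at 45.4 CPM in aDR mouse 62 and at 0.336 to 16.2 CPM in the other libraries. The 6 tanycyte markers summed to 109, 50.6, 47.9 and 57.9 CPM in AL mice 63, 66, 68 and 69. In aDR mice 62, 64, 65 and 67 the sum was 51.7, 51.4, 120 and 138 CPM. It was 37.8, 114 and 83.4 CPM in PBS mice 72, 80 and 84. In YMP mice 73, 77 and 81 it was 54.9, 41.0 and 128 CPM. The marker Rax was at 0 counts in AL mouse 68, 0.503 CPM in AL mouse 66 and 15.5 CPM in aDR mouse 67. The part of this content in the peptide levels was not tested. The summed level of the 5 ventromedial markers did not overlap between the diets, at 183 to 223 CPM in AL and 98.3 to 181 in aDR mice, and its part in the diet changes was not tested. The treatment changes in hypothalamus are also given without aDR mice 62 and 67 and without PBS mouse 72 and YMP mouse 77. This choice was made after the marker values were seen. It leaves aDR mice 64 and 65 against all AL mice, and YMP mice 73 and 81 against PBS mice 80 and 84. The pieces left still differed in content, and AL mouse 68, with 0 counts of Rax, was kept.

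The 250 bases before the transcription start of the most abundant peptide genes are shown for reference, and shared regulation of these genes was not tested. They are from RefSeq (GRCm38.p6), read 5′ to 3′ on the gene's own strand, and capitals mark a motif match. Agrp had no entry in this promoter set. Npy is at chr6:49822460-49822709 (plus), Pomc at chr12:3954695-3954944 (plus) and Cartpt at chr13:99900684-99900933 (minus). The Cartpt window lies inside the GENCODE span of the gene given below, because the RefSeq start used here is downstream of the GENCODE one.
Npy: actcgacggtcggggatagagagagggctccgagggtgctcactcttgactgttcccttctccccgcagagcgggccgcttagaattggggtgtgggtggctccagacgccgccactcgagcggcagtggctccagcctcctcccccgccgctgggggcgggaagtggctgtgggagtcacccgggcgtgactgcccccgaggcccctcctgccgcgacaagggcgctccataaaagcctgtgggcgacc
Pomc: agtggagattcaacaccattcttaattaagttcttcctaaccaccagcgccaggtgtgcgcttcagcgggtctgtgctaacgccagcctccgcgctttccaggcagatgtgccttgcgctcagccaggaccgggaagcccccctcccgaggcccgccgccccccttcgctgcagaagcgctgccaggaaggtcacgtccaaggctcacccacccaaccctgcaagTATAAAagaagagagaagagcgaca
Cartpt: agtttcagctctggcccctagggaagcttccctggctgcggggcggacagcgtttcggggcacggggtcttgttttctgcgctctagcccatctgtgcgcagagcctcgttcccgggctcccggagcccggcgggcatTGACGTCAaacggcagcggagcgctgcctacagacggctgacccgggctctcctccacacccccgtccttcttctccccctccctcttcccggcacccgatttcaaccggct

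A set of 4 short motifs was searched on both strands of these windows, and none overlaps another. The core promoter motif TATAAA was found 25 bases before the start of Pomc, and in 12.4% of 32851 mouse promoters of this length. The cAMP response element TGACGTCA was found 112 bases before the start of Cartpt, and in 1.55% of promoters. The STAT motif TTCNNNGAA (7.02% of promoters) and the FOXO motif GTAAACA (3.17%) were found in none of the 3 windows. The Npy window held none of the 4 motifs. The promoters of Mc3r, Ghsr and Lepr were also matched in the RefSeq table and held none of them.

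Positions are those of the GENCODE M21 annotation of GRCm38, the build named in the submitters' processing notes. Npy lies at chr6:49822710-49829507, Pomc at chr12:3954951-3960642, Lepr at chr4:101717404-101815352, Ghsr at chr3:27371351-27378010 and Mc3r at chr2:172248492-172251114 on the plus strand. Cartpt (chr13:99898489-99901091) and Mc4r (chr18:66857704-66860506) lie on the minus strand. Agrp (chr8:105566698-105637393, minus strand) is the uncertain member: its gene model shares 114 of its 1013 exon bases with Ctcf on the opposite strand, and the libraries carry no strand information. Reads from those bases cannot be assigned to either gene. Exons of the other 7 genes overlap no other annotated gene.

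Levels of different genes were compared per kb of exon. Over the 14 hypothalamus libraries the mean was 119 CPM per kb for Cartpt, 76.0 for Npy, 55.1 for Pomc and 11.3 for Agrp. The receptors were far lower, at 3.26 CPM per kb for Mc3r, 1.83 for Mc4r, 0.851 for Ghsr and 0.593 for Lepr. In AL mice the order of the peptides was Cartpt (146), Pomc (63.3), Npy (34.6) and Agrp (3.67 CPM per kb). Agrp and the receptor genes rested on few reads. Agrp had 8 to 38 counts per library in AL mice and 8 to 559 over all 14 libraries, Lepr had 15 to 90, Ghsr 7 to 46, Mc4r 21 to 238 and Mc3r 19 to 152.

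Dietary restriction was compared with free feeding first in the hunger peptides. Agrp was at 6.97, 1.46, 1.36 and 5.06 CPM in AL mice 63, 66, 68 and 69, and at 1.46, 1.93, 14.1 and 72.3 CPM in aDR mice 62, 64, 65 and 67. Npy, released by the same neurons, was at 29.3, 8.73, 6.65 and 33.7 CPM in the AL mice and at 8.15, 12.2, 60.6 and 208 CPM in the aDR mice, in the same order of animals. For both genes aDR mice 65 and 67 lay above every AL mouse and aDR mice 62 and 64 lay within the AL range. Control means of Agrp in the other brain regions were 0.56 to 1.73 CPM. AL mice 66 and 68 and aDR mouse 62 lay within these means, and aDR mouse 64 was at 1.93 CPM. The part of arcuate tissue in the diet difference was not tested. The log2 change was 2.74 for Agrp (95% interval 0.20 to 5.28) and 1.96 for Npy (-0.13 to 4.05). Neither passed the test across all genes (edgeR quasi-likelihood test with Benjamini-Hochberg adjustment, adjusted p 0.986). Without aDR mice 62 and 67 the changes were 1.19 for Agrp and 0.97 for Npy (edgeR adjusted p 0.739 and 0.758), and without aDR mouse 67 alone they were 0.70 and 0.50. The part of pituitary tissue in the values of aDR mouse 67 was not tested.

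In the satiety peptides the restricted mice lay on both sides of AL mice. Pomc was at 107, 18.9, 5.62 and 202 CPM in AL mice 63, 66, 68 and 69, and at 2.30, 67.6, 87.9 and 48.2 CPM in aDR mice 62, 64, 65 and 67. The AL group alone spanned a 36.0-fold range, and aDR mouse 62 lay below it. Pituitary markers also differed between these libraries, and the part of pituitary tissue in the Pomc values was not tested. Cartpt was at 231, 214, 87.9 and 214 CPM in the AL mice and at 50.6, 42.9, 252 and 180 CPM in the aDR mice, of which mice 62 and 64 lay below every AL mouse and mouse 65 above. The log2 changes were -0.67 for Pomc (95% interval -2.83 to 1.48) and -0.52 for Cartpt (-1.69 to 0.65), with an edgeR adjusted p of 0.986 for each. Without aDR mice 62 and 67 they were -0.055 and -0.36.

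The receptors varied less between animals and their intervals were narrower. Lepr was at 6.42, 4.11, 2.56 and 3.93 CPM in AL and 3.66, 2.19, 4.84 and 6.08 CPM in aDR mice, a log2 change of -0.017 (95% interval -0.78 to 0.74, edgeR adjusted p 0.999). Ghsr was at 4.22, 2.10, 1.19 and 3.93 CPM in AL and 3.24, 3.86, 4.29 and 4.91 CPM in aDR mice. Its log2 change was 0.55 (-0.21 to 1.31), and AL mice 63 and 69 lay inside the aDR range. Mc4r was at 4.22, 5.21, 6.31 and 5.24 CPM in AL and 4.28, 5.01, 4.98 and 2.97 CPM in aDR mice, a log2 change of -0.29 (-0.79 to 0.21). Mc3r was at 9.54, 6.95, 6.82 and 8.62 CPM in AL and 4.70, 5.79, 11.8 and 11.3 CPM in aDR mice, a log2 change of 0.07 (-0.57 to 0.71). The groups overlapped for each receptor and none passed the test. Without aDR mice 62 and 67 the log2 changes were -0.29 for Lepr, 0.54 for Ghsr, -0.093 for Mc4r and 0.13 for Mc3r.

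Of the 8 genes 0 were called between the diets, as were 0 of 13804 genes tested (background 0%, edgeR), with 639 genes at an unadjusted p under 0.05 and 11 called by DESeq2, none of them among the 8. Values that did not overlap between the diets were found for 0 of the 8 genes and for 3.12% of all genes tested. The intervals limit what can be said. A log2 change of 1 in either direction lies outside the intervals of Lepr, Mc4r and Mc3r, whereas the interval of Agrp reaches from 0.20 to 5.28.

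**Figure D1:**
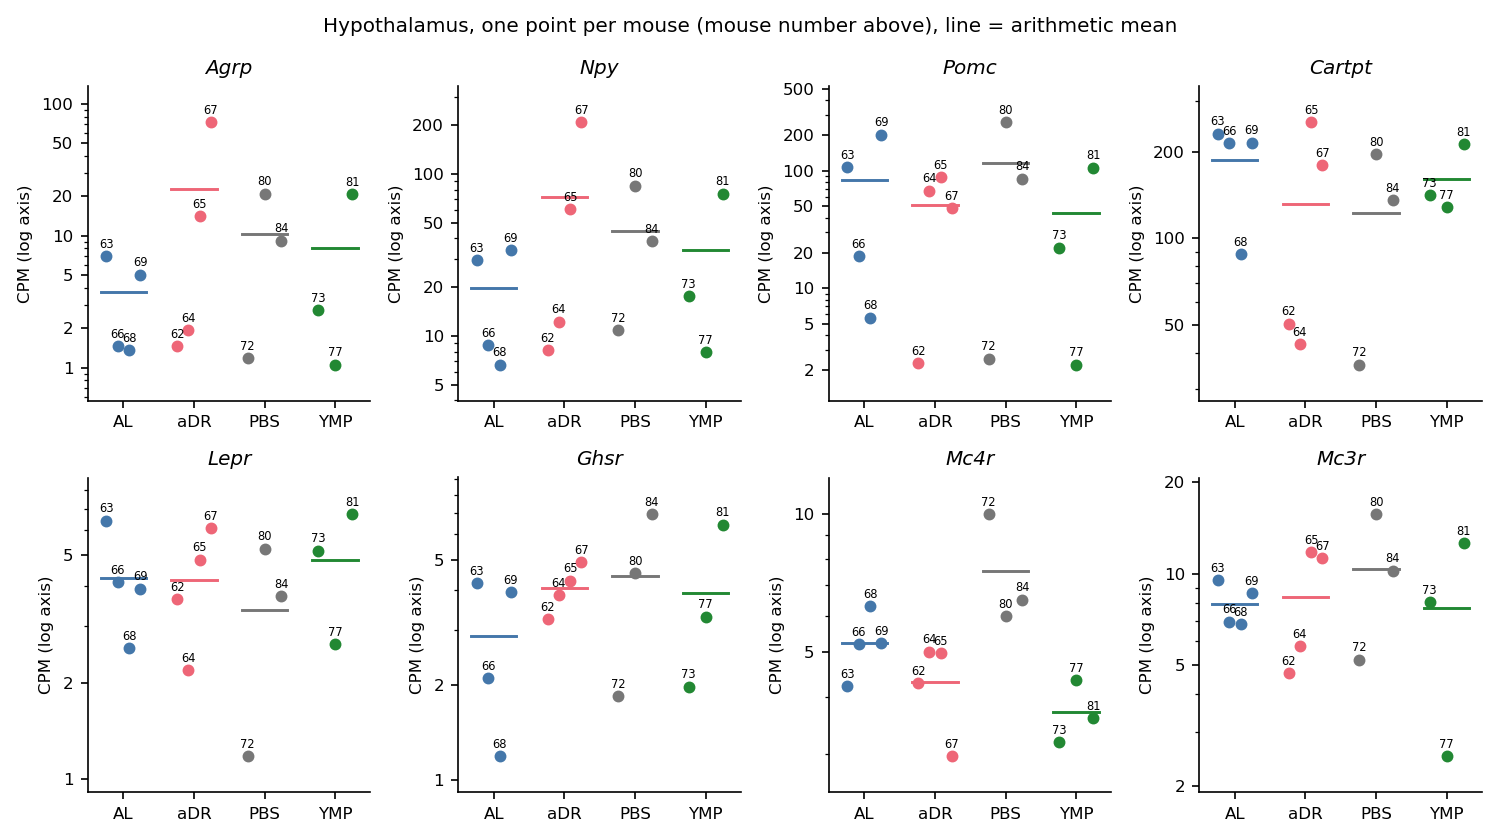
CPM of the 8 genes (log axis, a panel per gene) in hypothalamus by group, with a point per mouse, its number above it and a line at the arithmetic mean. Agrp and Npy of aDR mouse 67 stand far above the other animals, AL and aDR values overlap in every panel, and only Mc4r separates PBS from YMP mice.

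Young plasma was then compared with PBS. Agrp was at 1.18, 20.8 and 9.15 CPM in PBS mice 72, 80 and 84, and at 2.74, 1.06 and 20.5 CPM in YMP mice 73, 77 and 81. Npy was at 10.9, 84.7 and 38.4 CPM in the PBS mice and at 17.6, 7.91 and 75.4 CPM in the YMP mice. In both groups the lowest animal was one with hardly any Nr5a1, PBS mouse 72 and YMP mouse 77. The Agrp values of both lay within the control means of other brain regions, 0.56 to 1.73 CPM. The log2 changes were -0.31 for Agrp (95% interval -2.95 to 2.34) and -0.37 for Npy (-2.41 to 1.67).

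Pomc covered the widest range of the 8 genes in the plasma experiment, with 2.52, 258 and 85.9 CPM in PBS mice 72, 80 and 84 and 22.2, 2.24 and 106 CPM in YMP mice 73, 77 and 81. Its log2 change of -1.38 had a 95% interval from -4.64 to 1.87. The part of pituitary tissue in these Pomc values was not tested. Cartpt was at 36.5, 196 and 136 CPM in the PBS and 141, 128 and 212 CPM in the YMP mice (log2 change 0.42, interval -0.76 to 1.59). The edgeR adjusted p was 0.998 for each of the 4 peptide genes. Without PBS mouse 72 and YMP mouse 77 the log2 changes were -0.36 for Agrp, -0.40 for Npy, -1.41 for Pomc and 0.10 for Cartpt, and none passed the test.

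Mc4r, the main melanocortin receptor of appetite control, was the only member of the 8 genes whose values did not overlap between PBS and YMP mice. It was at 10.01, 5.99 and 6.51 CPM in PBS mice 72, 80 and 84 and at 3.19, 4.35 and 3.60 CPM in YMP mice 73, 77 and 81. Values of 9.55% of all genes tested did not overlap either. The log2 change was -1.03 (SE 0.28, 95% interval -1.69 to -0.37) with an unadjusted p of 0.00736, which ranked 99 among 13776 genes. The edgeR adjusted p was 0.987, so the lower level was not called. The change was -0.85 without PBS mouse 72 and YMP mouse 77 (edgeR adjusted p 0.684), and -1.17 to -0.71 with a single mouse left out. Markers of neighbouring tissue differed in the same comparison: the summed thalamus markers were at 534 to 857 CPM in PBS and 993 to 1490 CPM in YMP mice. The summed ventromedial markers were at 195 to 243 CPM in PBS and 119 to 144 CPM in YMP mice. The summed paraventricular and supraoptic markers were at 415, 1296 and 1026 CPM in PBS mice 72, 80 and 84 and at 70.0, 1233 and 93.9 CPM in YMP mice 73, 77 and 81. Without PBS mouse 72 and YMP mouse 77, among the 8 genes called, Avp (log2 change -7.04), Oxt (-5.54) and Trh (-1.19) of that list were lower, as was Vip (-2.99), and Lmx1a (8.69), Nr4a2 (2.68) and Nxph4 (1.60) were higher, with edgeR adjusted p values of 0.0186 to 0.0492. These genes are named after their values were seen. YMP mouse 77, left out there, had the highest Avp and Oxt of the YMP mice, at 403 and 669 CPM. The part of the neighbouring tissues in the value of Mc4r was not tested.

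The other receptors overlapped between PBS and YMP mice. Mc3r was at 5.21, 15.8 and 10.2 CPM in PBS and 8.06, 2.51 and 12.6 CPM in YMP mice, a log2 change of -0.40 (95% interval -1.72 to 0.91). Lepr was at 1.18, 5.25 and 3.72 CPM in PBS and 5.17, 2.64 and 6.75 CPM in YMP mice (0.60, interval -0.71 to 1.90). Ghsr was at 1.85, 4.52 and 6.98 CPM in PBS and 1.98, 3.30 and 6.45 CPM in YMP mice (-0.12, interval -1.42 to 1.19). Without PBS mouse 72 and YMP mouse 77 the log2 changes were -0.32 for Mc3r, 0.42 for Lepr and -0.41 for Ghsr. Of the 8 genes 0 were called, as were 0 of 13776 genes tested (background 0%, edgeR), with 600 genes at an unadjusted p under 0.05 and 33 called by DESeq2, none of them among the 8.

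The difference between the diet change and the plasma change was tested in a fit of all 4 hypothalamus groups. It was called for 0 of the 8 genes and 0 of 14205 genes (background 0%, edgeR; 740 at an unadjusted p under 0.05 and 1 called by DESeq2, Cirbp, named after its values were seen). The largest differences were those of Agrp, at 3.01 (95% interval -0.90 to 6.92), and Npy, at 2.32 (-0.84 to 5.49). For Mc4r it was 0.74 (-0.02 to 1.503).

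**Figure D2:**
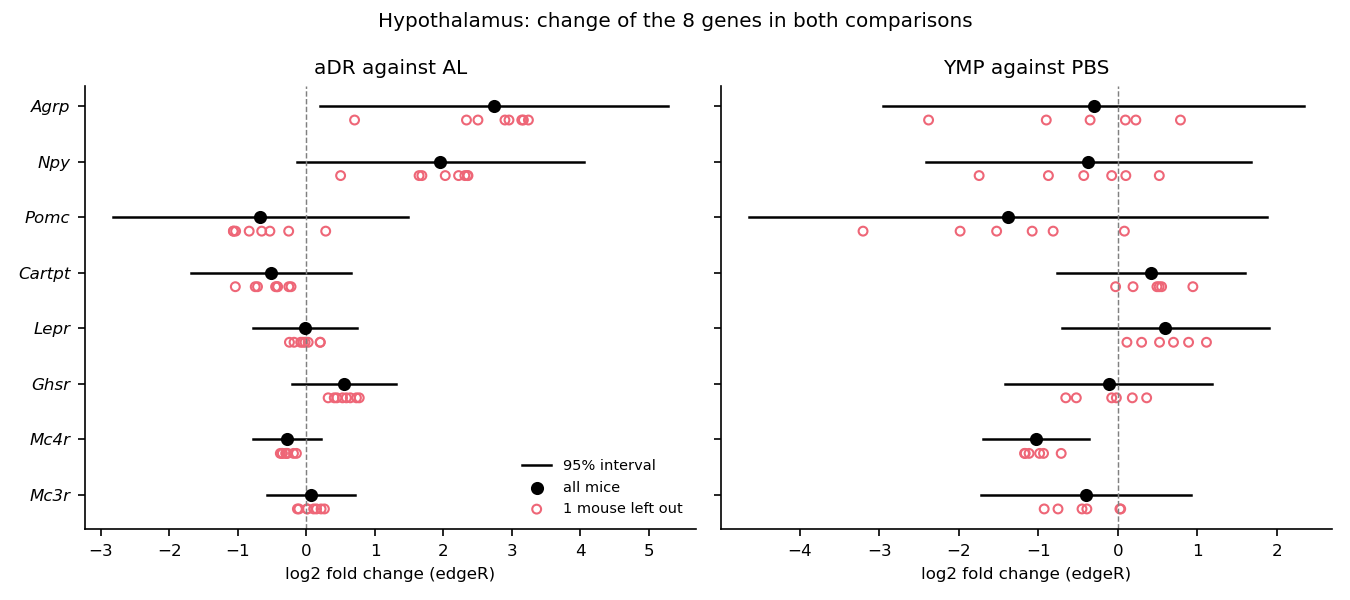
Log2 fold change of each gene in hypothalamus (black points, edgeR) with its 95% interval (lines), and the change with a single mouse left out (open circles), for aDR against AL on the left and YMP against PBS on the right. Leaving out aDR mouse 67 brings Agrp from 2.74 to 0.70, circles of Pomc lie on both sides of 0 in both comparisons, and the circles of Mc4r stay below 0 in both.

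**Figure D3:**
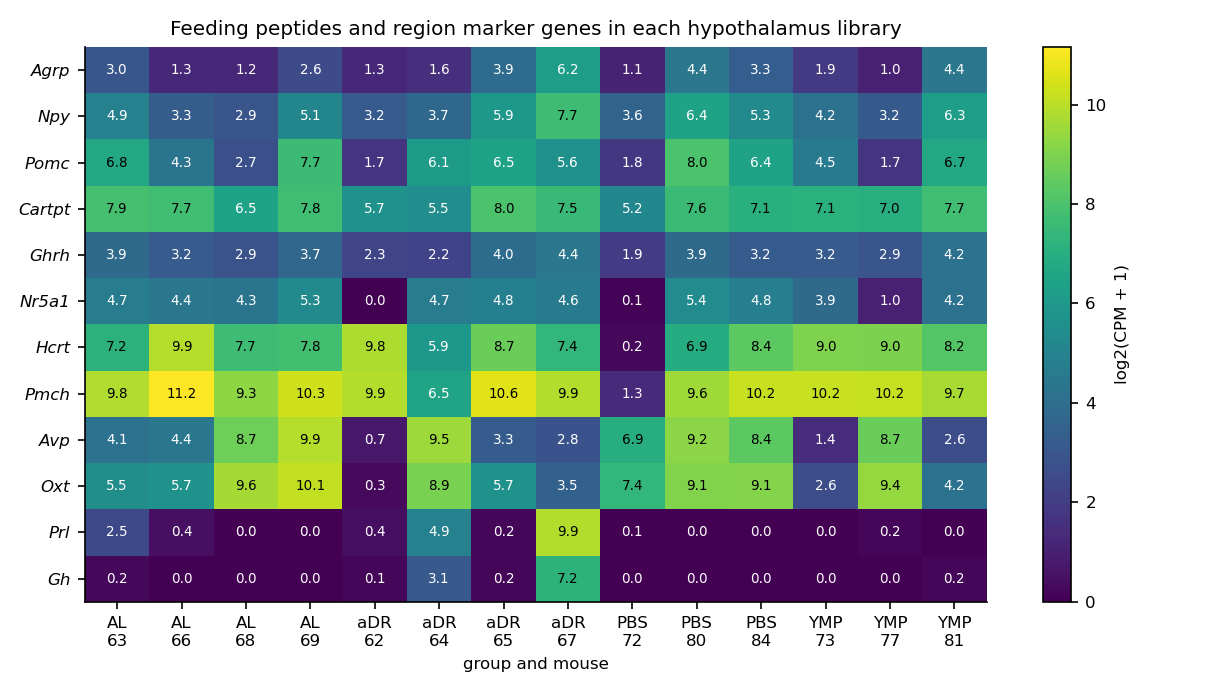
Heat map of log2(CPM + 1) of the 4 peptide genes and of marker genes of arcuate nucleus (Ghrh), ventromedial nucleus (Nr5a1), lateral hypothalamus (Hcrt, Pmch), paraventricular and supraoptic neurons (Avp, Oxt) and pituitary (Prl, Gh), with a column per hypothalamus library. The 3 libraries with the least Nr5a1, aDR mouse 62, PBS mouse 72 and YMP mouse 77, are also those with the least Pomc.

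The peptide genes were among the most variable genes of the hypothalamus. Over the 14 libraries the coefficient of variation (CV, the SD as a percent of the mean) was 165% for Agrp, and 3 of 13649 genes had a higher one. It was 126% for Npy (10 genes higher) and 108% for Pomc (20 genes higher), against a median of 12.7%. Cartpt (48.7%), Ghsr (44.5%), Mc3r (41.7%), Lepr (40.0%) and Mc4r (34.5%) varied less. The 3 libraries that almost lacked Nr5a1 were the 3 lowest for Pomc, at 2.30, 2.52 and 2.24 CPM, followed by AL mouse 68 at 5.62 CPM, which had 18.6 CPM of Nr5a1.

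Within groups, animals with more of a feeding peptide also tended to have more of the other genes, except for Mc4r. Correlations were computed on log2 CPM after subtracting each treatment group's mean, over 14 libraries and 28 pairs of genes, with a permutation p from shuffles within groups. Of the 28 pairs, 22 passed by Pearson's r and 25 by Spearman's rho after Benjamini-Hochberg adjustment, and 21 coefficients were positive. The share of all gene pairs that would pass was not determined, so these counts cannot be called particular to the feeding genes. Agrp and Npy, made by the same neurons, were the closest pair, with an r of 0.99 and a rho of 0.98 (adjusted permutation p 0.00364 for each). The r was 0.98 without the libraries of aDR mouse 67 and YMP mouse 81, which lay farthest from the median of Agrp, 0.99 within the diet and 0.996 within the plasma experiment.

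Agrp and Pomc, made by opposing neurons, were also positively related, with an r of 0.76 and a rho of 0.77 (adjusted permutation p 0.0107 and 0.0125). The r was 0.84 without aDR mouse 67 and YMP mouse 81, 0.59 within the diet and 0.97 within the plasma experiment. Mc4r had a negative coefficient with each of the other 7 genes, and the strongest was with Lepr, at an r of -0.86 and a rho of -0.90 (adjusted permutation p 0.00483 and 0.00455). That r was -0.78 without PBS mouse 72 and aDR mouse 64, -0.79 within the diet and -0.94 within the plasma experiment. Between 17 and 25 pairs passed by r when a single library was left out. The libraries of aDR mouse 62, PBS mouse 72 and YMP mouse 77 were low in Nr5a1 and in Pomc. Their summed ventromedial markers were at 98.3, 195 and 119 CPM, against 135 to 243 CPM in the other libraries. The part of piece content in the correlations was not tested.

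Ratios of counts were also taken within each library. The ratio of Npy to Agrp counts stayed between 2.88 and 9.25, while Agrp CPM ranged over 68.5-fold and Npy CPM over 31.3-fold. The ratio of Agrp to Pomc counts was lowest in AL mouse 69, at 0.025, and highest in aDR mouse 67, at 1.499, the only library with more Agrp than Pomc counts. It was 0.065, 0.077, 0.242 and 0.025 in AL mice 63, 66, 68 and 69 and 0.636, 0.029, 0.161 and 1.499 in aDR mice 62, 64, 65 and 67, so the diets overlapped. In the plasma experiment it was 0.467, 0.080 and 0.106 in PBS mice 72, 80 and 84 and 0.123, 0.471 and 0.193 in YMP mice 73, 77 and 81. In AL mouse 68, aDR mouse 62, PBS mouse 72 and YMP mouse 77 both genes lay within control means of other brain regions. Those means were 0.56 to 1.73 CPM for Agrp and 1.22 to 5.89 CPM for Pomc. Whether the ratios of these libraries reflect the peptide neurons cannot be told. The ratio of Cartpt to Pomc counts ran from 0.635 to 57.1, a wider range than that of Npy to Agrp. Its highest value was that of YMP mouse 77, which had 17 Pomc counts.

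**Figure D4:**
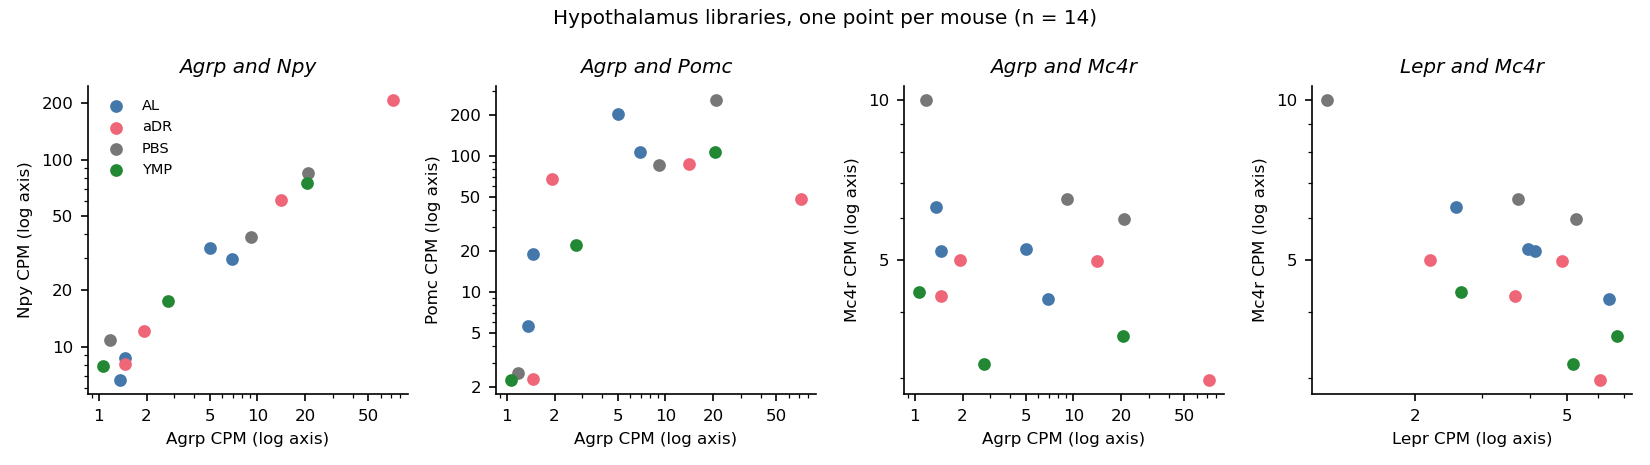
CPM of Npy, Pomc and Mc4r against Agrp, and of Mc4r against Lepr (log axes), with a point per hypothalamus library coloured by group. Npy follows Agrp closely in all 4 groups (r 0.99 of deviations from group means), Pomc follows Agrp loosely (0.76), and Mc4r is lower where Agrp (-0.73) or Lepr (-0.86) is higher.

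The gene whose deviations were most like those of each member was sought outside the 8 genes, among 13923 genes, over the 14 hypothalamus libraries. It was Pcsk1n, encoding the prohormone convertase inhibitor proSAAS, for both Agrp and Npy (Pearson r 0.97 for each), and Ghrh, the growth hormone releasing hormone of the arcuate nucleus, had an r of 0.97 with Agrp. It was Prss30 for Pomc (0.95), Npvf, a peptide of the dorsomedial nucleus, for Cartpt (0.96), Nkx2-4, a developmental factor of the hypothalamus, for Lepr (0.97) and Cckbr, a cholecystokinin receptor, for Mc3r (0.97). Ghsr was most like Mbtd1 (0.93) and Mc4r most like Pcyt1a (0.93). All these points share libraries, and no test was made.

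A list of 40 other genes of the pathway held further NPY and melanocortin receptors, leptin and insulin signalling genes, prohormone enzymes and developmental factors of these neurons. In hypothalamus 32 were tested and 0 were called in either comparison (edgeR, 2 at an unadjusted p under 0.05 between the diets and 5 between PBS and YMP, against 4.63% and 4.36% of all genes). Between the diets 14 had a log2 change above 0 and 18 below, with a median of -0.05 against 0.01 over all genes. Between PBS and YMP 15 lay above and 17 below, with a median of -0.05 against -0.01. Cpe, encoding the carboxypeptidase that trims peptide hormones, was at 2655 ± 431 CPM (SD, n = 4) in AL and 3353 ± 582 (n = 4) in aDR mice, and at 2583 ± 221 (n = 3) in PBS and 3297 ± 124 (n = 3) in YMP mice. Npy2r, the receptor by which NPY and PYY inhibit these neurons, was at 44.8 ± 3.90 CPM (n = 3) in PBS and 30.6 ± 6.74 (n = 3) in YMP mice. Npy5r, another NPY receptor, was at 8.15 ± 0.589 CPM (n = 4) in AL and 10.5 ± 1.897 (n = 4) in aDR mice. None of these differences passed the adjusted test.

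Levels in control animals were then set against 14 other brain regions. In AL mice 7 of the 8 genes differed between hypothalamus and the mean of the other regions, 6 of them higher in hypothalamus, where 51.9% of 15324 genes differed and 26.6% were higher (edgeR quasi-likelihood test, adjusted p under 0.05). The log2 differences were 5.38 for Cartpt, 5.24 for Mc3r, 5.03 for Pomc, 3.86 for Ghsr, 1.79 for Agrp and 1.78 for Mc4r. Npy was lower by a log2 difference of -1.44, and Lepr did not pass (0.41, edgeR adjusted p 0.411). In PBS mice the same 6 genes were higher, at 5.85 for Pomc, 5.61 for Mc3r, 5.498 for Cartpt, 5.14 for Ghsr, 3.26 for Agrp and 2.46 for Mc4r, where 42% of 15415 genes differed and 23.8% were higher. Npy (0.05, edgeR adjusted p 0.934) and Lepr (-0.39, edgeR adjusted p 0.527) did not pass in PBS mice. For the pathway list 34 genes were tested, of which 18 were higher and 8 lower in hypothalamus in AL mice, and 18 higher and 5 lower in PBS mice. The largest differences in AL mice were those of the calcitonin receptor Calcr (7.82) and the developmental factors Bsx (7.24) and Otp (7.15), and the lowest was that of the activin receptor Acvr1c (-1.69).

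Agrp, Pomc and Cartpt were higher in hypothalamus than in each of the 14 regions in both AL and PBS mice. In AL mice the share of all genes called higher in hypothalamus was 30% against caudate putamen, 30.9% cerebellum, 20% choroid plexus, 23% corpus callosum, 21.8% entorhinal cortex, 24.3% anterior and 23.4% posterior hippocampus. It was 27.4% against medulla, 29% motor cortex, 32.2% olfactory bulb, 23.6% pons, 19.7% SVZ, 21.5% thalamus and 28.5% visual cortex. In PBS mice it was lowest against thalamus, at 16.2%, and highest against olfactory bulb, at 29.5%. Cartpt was at 187 ± 66.3 CPM (SD, n = 4) in AL hypothalamus and 13.3 ± 1.48 (n = 4) in the next region, olfactory bulb, and the ranges did not overlap. Pomc was at 83.4 ± 91.1 CPM (n = 4), and its range overlapped with that of the next region, medulla, at 5.89 ± 5.18 (n = 4), as it did in PBS mice. Agrp was at 3.71 ± 2.77 CPM (n = 4) in AL and 10.4 ± 9.85 (n = 3) in PBS hypothalamus, and its range overlapped with that of the next region in both, olfactory bulb and cerebellum. Elsewhere Agrp had means of 0.56 to 1.73 CPM, and the part of Ctcf reads in them was not tested. Npy was instead most abundant in olfactory bulb, at 202 ± 24.6 CPM (n = 4) in AL and 170 ± 10.7 (n = 4) in PBS mice, followed by motor cortex at 190 ± 26.7 (n = 4) and 144 ± 7.01 (n = 4). It was higher in hypothalamus than in 1 region and lower than in 9 in AL mice, and higher than in 3 and lower than in 6 in PBS mice. Hypothalamus was 12th in AL (19.6 ± 13.9 CPM, n = 4) and 10th in PBS mice (44.7 ± 37.3, n = 3). Neurons that make Npy as interneurons are known throughout cortex and olfactory bulb.

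Among the receptors Ghsr was highest in hypothalamus, at 2.86 ± 1.45 CPM (SD, n = 4) in AL and 4.45 ± 2.56 (n = 3) in PBS mice, and its ranges overlapped with the next region in both. It was higher than 11 of the 14 regions in AL and all 14 in PBS mice, and it had 0 counts in all 16 caudate putamen libraries, each of which allows up to 3. Mc3r formed a group of 3 regions in AL mice, SVZ (the subventricular zone) at 8.89 ± 2.38 CPM (n = 4), hypothalamus at 7.98 ± 1.32 (n = 4) and thalamus at 6.90 ± 2.85 (n = 4), which overlapped each other and no further region. Mc3r had 0 counts in all 15 visual cortex libraries. Mc4r was highest in medulla, at 8.16 ± 2.06 CPM (n = 4) in AL and 7.79 ± 3.02 (n = 4) in PBS mice, and overlapped with hypothalamus, which was higher than 8 regions in AL and 10 in PBS mice. Lepr differed from few regions, with hypothalamus higher than 1 in AL and lower than 3 in PBS mice. It was highest outside hypothalamus, in AL liver at 9.67 ± 5.18 CPM (n = 4) and in PBS corpus callosum at 12.6 ± 6.87 (n = 3), choroid plexus at 9.92 ± 0.26 (n = 4) and SVZ at 9.83 ± 7.28 (n = 4). Ttr, a choroid plexus gene, was at 4684 to 17422 CPM in PBS corpus callosum and 2602 to 18358 CPM in PBS SVZ. In AL corpus callosum Lepr was at 0.556, 11.2 and 3.16 CPM in mice 63, 66 and 69. Ttr was at 34.2, 10495 and 1066 CPM in those libraries. The part of choroid plexus tissue in these Lepr levels was not tested. All 9 liver libraries had 0 counts of Npy, Cartpt, Ghsr, Mc4r and Mc3r.

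**Figure D5:**
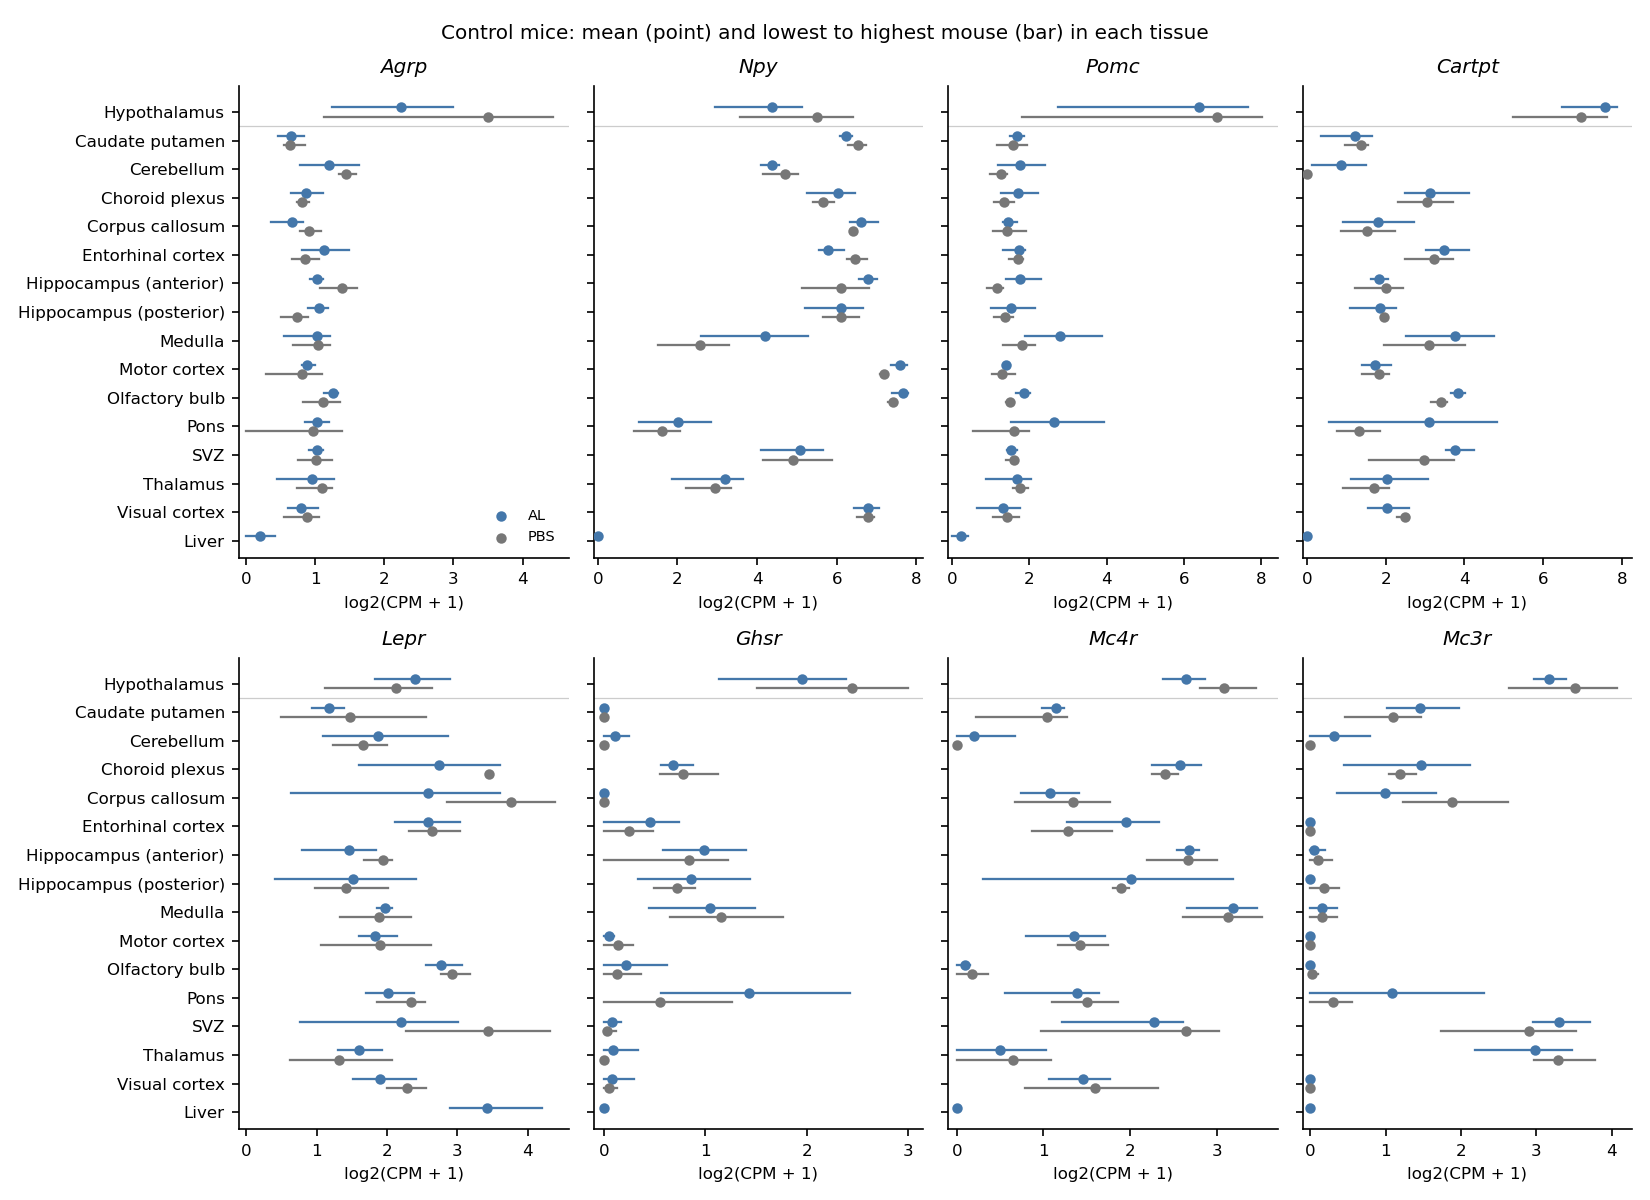
Level of each gene as log2(CPM + 1) by tissue in AL mice (blue, diet experiment) and PBS mice (grey, plasma experiment), with the point at the mean and the bar from the lowest to the highest mouse. Cartpt, Pomc and Agrp peak in hypothalamus, Npy is highest in olfactory bulb (202 CPM in AL mice) and motor cortex, and Lepr in AL mice is highest in liver (9.67 CPM).

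Outside hypothalamus the treatments were compared in every other brain region in which a gene passed the filter on low counts. Of 77 such tests for aDR against AL 0 were called (edgeR, 9 at an unadjusted p under 0.05, 1 called by DESeq2), where few genes were called in any tissue. That share of all genes was 0.251% in motor cortex, 0.22% in olfactory bulb, 0.202% in visual cortex, 0.0524% in cerebellum, 0.0215% in corpus callosum and 0.0212% in SVZ. It was 0.0146% in caudate putamen, 0.00714% in medulla, 0.00707% in choroid plexus and 0% in the 5 other regions. Of 73 tests for YMP against PBS 0 were called (14 at an unadjusted p under 0.05, 2 called by DESeq2), where 0.184% of genes were called in corpus callosum, 0.00738% in cerebellum and 0% in the 12 other regions. In liver, where 0.22% of genes were called, only Lepr could be tested. It was at 7.55, 6.41, 7.32 and 17.4 CPM in AL mice and 10.6, 5.94, 15.1, 6.57 and 40.2 CPM in DR mice 61, 62, 64, 65 and 67. The groups overlapped (log2 change 0.82, edgeR adjusted p 0.783).

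Lepr came closest to the threshold, in corpus callosum and SVZ of YMP mice. In corpus callosum it was at 19.9, 11.7 and 6.22 CPM in PBS mice 76, 80 and 84 and at 0.375 and 1.13 CPM in YMP mice 77 and 81 (log2 change -3.88, SE 0.62, edgeR adjusted p 0.0730). In SVZ it was at 18.9, 12.5, 4.07 and 3.81 CPM in PBS mice 72, 76, 80 and 84 and at 0.253, 0.441 and 0.693 CPM in YMP mice 73, 77 and 81 (-4.39, SE 0.77, edgeR adjusted p 0.0828). The groups did not overlap in either region, where the share of all genes without overlap was not determined. DESeq2 called both (adjusted p 6.16e-07 and 1.79e-06). With a mouse left out, edgeR called it in corpus callosum without PBS mouse 76 (adjusted p 0.0464) or 84 (adjusted p 4.66e-04), and in SVZ without PBS mouse 72 (adjusted p 0.0349). Ttr, the transthyretin gene that defines choroid plexus epithelium, differed in the same libraries. In corpus callosum it was at 17422, 12814 and 4684 CPM in the PBS mice and at 0 and 2.61 CPM in the YMP mice. In SVZ it was at 2602 to 18358 CPM in the PBS mice and at 0.110 to 3.56 CPM in the YMP mice. In choroid plexus itself Lepr was at 9.56 to 10.2 CPM in the 4 PBS mice and at 0.653, 7.92 and 7.26 CPM in YMP mice 73, 77 and 81, and YMP mouse 73 also had the lowest Ttr, at 127 CPM. The part of choroid plexus tissue in the Lepr values was not tested.

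Pomc was high in a few libraries of entorhinal cortex, medulla and pons. It exceeded 9 CPM, a limit chosen after its values were seen, in 10 of 215 brain libraries outside hypothalamus, from 6 mice. The highest were medulla of aDR mouse 67 at 805 CPM, entorhinal cortex of aDR mouse 62 at 483 CPM and medulla of YMP mouse 73 at 128 CPM. Summed pituitary markers were at 1676 CPM and 7451 CPM in the first and second of these and at 7.51 CPM in the third, against a median of 1.35 CPM in the 205 other libraries. Pons of aDR mouse 67 had 91.4 CPM of Pomc and 187160 CPM of pituitary markers. The reverse also occurred, and pons of aDR mouse 64 had 1869 CPM of pituitary markers with 4.41 CPM of Pomc. The log2 changes of Pomc for aDR against AL were 5.66 in entorhinal cortex, 4.89 in medulla and 2.73 in pons, and none passed (edgeR adjusted p 0.9997, 0.669 and 0.997). Pomc is also the precursor of corticotropin in the pituitary, and the part of pituitary tissue in these values was not tested.

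Npy and Cartpt had differences in single regions that depended on the mouse. In medulla Npy was at 2.81, 8.74, 6.13 and 1.83 CPM in PBS mice 72, 76, 80 and 84 and at 26.1, 10.4 and 42.6 CPM in YMP mice 73, 77 and 81, with no overlap (log2 change 2.65, SE 0.52, edgeR adjusted p 0.438). The share of all genes without overlap in medulla was not determined. In SVZ Npy was at 58.3, 16.8, 23.3 and 16.9 CPM in the PBS and 55.4, 63.1 and 53.2 CPM in the YMP mice, a log2 change of 0.89 (edgeR adjusted p 0.437) that was 1.61 without PBS mouse 72 (edgeR adjusted p 0.0150). Cartpt in olfactory bulb was at 9.29, 10.7, 10.3 and 7.92 CPM in the PBS and 6.60, 8.35 and 24.8 CPM in the YMP mice, and YMP mouse 81 alone lay above the PBS range (log2 change 0.88, edgeR adjusted p 0.460). It was 1.23 without YMP mouse 77 (edgeR adjusted p 0.00137). In cerebellum Npy was at 22.4, 19.3, 16.04 and 20.9 CPM in AL and 24.1, 20.8, 37.7, 33.0 and 33.7 CPM in aDR mice 61, 62, 64, 65 and 67 (0.61, edgeR adjusted p 0.160, DESeq2 adjusted p 0.0413).

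Each mouse was finally given a single value per gene, the mean over its brain regions after removing region levels. Between the diets 0 of the 8 genes were called by limma with Benjamini-Hochberg adjustment, where 0.922% of 15616 genes were. Agrp had a log2 change above 0 in 7 of 7 regions tested outside hypothalamus and a brain-wide one of 0.29 (limma adjusted p 0.317). Its control means in the other brain regions were 0.56 to 1.73 CPM, and the part of Ctcf reads was not tested. Regions of a mouse are not independent, so the counts of regions given here are descriptive. The share of all genes with the same sign across regions was not determined. Between PBS and YMP 0 of the 8 genes and 0% of 15768 genes were called (limma, 1275 at an unadjusted p under 0.05). Lepr had the lowest value, at -0.86 (SE 0.20, limma adjusted p 0.371), and was below 0 in 12 of 13 regions. The regions averaged include corpus callosum and SVZ, where Ttr also differed between PBS and YMP mice. The part of choroid plexus tissue in the brain-wide Lepr value was not tested. Subtracting each mouse's other regions from its hypothalamus left 0 of the 8 genes called in either experiment, where 0% of genes were called (limma, 441 and 971 at an unadjusted p under 0.05). For Mc4r that difference was -1.28 between PBS and YMP mice (SE 0.32, limma adjusted p 0.722), and outside hypothalamus Mc4r had a log2 change above 0 in 10 of 11 regions.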

How the data were processed

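RNA was extracted from homogenized tissue, amplified as Smart-Seq2 cDNA and sequenced from unstranded Nextera XT libraries, per the labels' protocols. Trim Galore 0.3.7, STAR 2.5.3a, DESeq2 and the GRCm38 build are named in the submitters' processing notes, and the counting program and annotation are not given in the sources used here. The authors deposited raw gene counts, whole numbers for 21076 genes in 238 libraries, and no column was left unmapped. Replicate hypothalamus libraries differed beyond sampling noise in each of 18 pairs.

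Groups came from the labels, and the members and lists were chosen with earlier results of these data known. Each treatment was tested within its experiment and region with edgeR 4.0.16 (quasi-likelihood, TMM, filterByExpr set to 10 counts per library and 15 in all) in R 4.3.3, with Benjamini-Hochberg adjustment over all genes tested and a threshold of 0.05. Intervals are 95% intervals of the fit. Brain-wide values per mouse were tested with limma 3.58.1 on log2 CPM with a prior count of 2. CPM printed per library is the count divided by the library total in M. Correlations used log2 CPM with a prior count of 2. DESeq2 1.42.0 was run as an alternative on the same deposited counts. Other alternatives were RLE size factors, no filter, 1 fit of all 4 hypothalamus groups, a prior count of 0.5, a mouse block, and leaving out each mouse. The labels name individual mice, so libraries of a mouse are paired across regions: deviations correlated at 0.040 within a mouse and -0.011 between mice of a treatment in the diet experiment, and at 0.072 and -0.029 in the plasma experiment. Named genes are the 8 members, the pathway genes with the smallest p and, for likeness, the genes with the highest r. Scripts were tested on simulated data. Library totals limit the precision of low genes.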

Additional observations from a re-analysis of the deposited data

Results flagged for a closer look

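In groups of 4 to 10 samples, 42 sets of values were checked for a sample far from the others by Dixon's criterion, and chance would mark about 2.1 of them. Cartpt in hypothalamus of AL mouse 68 was at 87.9 CPM, far below the other AL mice at 214 to 231 CPM. Among the totals of the AL hypothalamus libraries, AL mouse 66 had 21.9 M counts, far above the others at 5.34 to 5.87 M.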

How the results depend on the processing

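Of 192 values of the 8 genes in hypothalamus under alternatives, 175 kept their direction and their side of the threshold, and 17 changed sign, each without a single mouse and none past the threshold. With a mouse left out, the diet values ran from -0.25 to 0.20 for Lepr (above 0 without aDR mouse 62, at 0.025, AL mouse 63 or aDR mouse 64), -0.13 to 0.26 for Mc3r (below 0 without aDR mice 65 or 67, at -0.11) and -1.07 to 0.28 for Pomc (above 0 without AL mouse 69). The plasma values ran from -2.38 to 0.79 for Agrp (above 0 without YMP mice 73, at 0.095, or 77, at 0.23, or PBS mouse 80), -1.74 to 0.52 for Npy (YMP mouse 77, at 0.10, or PBS mouse 80) and -3.20 to 0.082 for Pomc (PBS mouse 80). They ran from -0.029 to 0.94 for Cartpt (below 0 without PBS mouse 72), -0.66 to 0.36 for Ghsr (above 0 without YMP mouse 73, at 0.18, or PBS mouse 84) and -0.93 to 0.035 for Mc3r (YMP mouse 77, at 0.026, or PBS mouse 80). The cause was not tested. DESeq2 called 11 genes between the diets, 33 between PBS and YMP and 1 for the difference (Cirbp), where edgeR called 0. Leaving out a mouse gave 0 to 0 calls between the diets, 0 to 1 between PBS and YMP (Vip, without PBS mouse 72) and 0 to 1 for the difference (Prkcd, without YMP mouse 81). Without PBS mouse 72 and YMP mouse 77, an alternative added after seeing the data, 8 genes were called, none of them a member. In other tissues DESeq2 called 1 member test for the diet (Npy in cerebellum) and 2 for plasma (Lepr in corpus callosum and SVZ), and no filter gave 1 for plasma (Lepr in corpus callosum). Leaving out a mouse gave 0 to 2 plasma calls, Lepr in corpus callosum without PBS mice 76 or 84, Lepr and Npy in SVZ without PBS mouse 72, and Cartpt in olfactory bulb without YMP mouse 77. The brain-wide diet count of 144 was 14 to 163 and the plasma count 0 to 1 (Steap2, without PBS mouse 80) with a mouse left out. Hypothalamus minus other regions gave 0 to 1 calls for each treatment (Insl6 without AL mouse 66, Lmx1a without YMP mouse 77). The PBS region count of 6470 was 4062 to 6385, lowest without PBS mouse 80. Genes named here for a single call were chosen after their values were seen. With no replicate block, treating libraries of a mouse as independent, the brain-wide counts were 2371 for the diet and 1687 for plasma. With the mouse as a replicate block the region counts were 8096 in AL and 7270 in PBS mice, and the block changed no other call. Depth limits Agrp, Lepr and Ghsr, with as few as 8, 15 and 7 counts in a hypothalamus library.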
